A study of Homo sapiens with 16 samples.

Results

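Tumours of the PC-3 line LhTERTL were compared with tumours of the PC-3 line mock, 4 tumours of each, in a series of 16 tumours from 4 lines. PC-3 is an established human prostate cancer cell line. LhTERTL carried exogenous hTERT, the catalytic protein of telomerase, and had long telomeres. The mock line carried no exogenous hTERT and had short telomeres. Neither line had received Cre recombinase. The other 8 tumours came from LhTERTL_cre, with long telomeres, Cre and no exogenous hTERT, and from mock_cre, with short telomeres, Cre and no exogenous hTERT. All 4 lines grew the same way, as subcutaneous tumours from injected cells in female nude mice of BALB/c background aged 5 weeks, taken at a diameter of 5 mm or more without further treatment. Nude mice lack a thymus and so make few mature T cells, while other host cells can enter the tumour. Each group is 1 line with 4 independent tumours, so that telomere length, exogenous hTERT and any other difference between the 2 lines cannot be told apart. All p-values given rest on how far tumours of one line differ from each other.

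RNA of each tumour was measured on 1 Affymetrix array with human probes. The members are the 20282 genes with at least 1 probe set that names exactly 1 gene, and all were compared. The values are log2 signals from which the median of the 16 arrays had been taken for every probe set. A value of 0 is therefore the middle of the series, 1 log2 unit is a 2-fold difference, and no value gives the level of a gene or allows one gene to be ranked against another by level. A gene was called at an adjusted p under 0.05 in limma, adjusted by the Benjamini-Hochberg method over all 20282 genes. In whole tumours fewer cells of a type and less RNA per cell cannot be told apart.

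Telomerase adds telomeric repeats to chromosome ends, and hTERT is its reverse transcriptase. Interferons are cytokines that, through JAK kinases, STAT factors and IRF9, switch on a large set of genes that block virus replication, present antigen and sense foreign nucleic acid. Many of these genes carry an interferon-stimulated response element (ISRE) in the promoter, the site of the complex of STAT factors with IRF9 and of other IRF factors. Cancer cells can keep part of this programme active without added interferon.

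No difference between the groups was detected in the array controls, in a design of 4 against 4. The centred log2 3'/5' signal ratio of control transcripts, a sign of RNA quality, averaged -0.0801 ± 0.145 in LhTERTL and 0.0700 ± 0.184 in mock tumours (SD, n = 4 each), a difference of -0.150 with an exact two-sided permutation p of 0.286. The smallest p that 4 against 4 allows is 0.0286. The mean of 27 poly-A spike probe sets was high on 1 array of each group, 1.51 in LhTERTL 3 and 1.09 in mock 3. Its group means of 0.287 ± 0.819 in LhTERTL and 0.159 ± 0.622 in mock had an exact permutation p of 0.600. The SD over genes of the difference between 2 arrays was 0.303 to 0.399 between LhTERTL and mock, against 0.156 to 0.244 within these groups.

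TERT, the introduced gene, was measured by 2 probe sets. By the first, the LhTERTL tumours had 3.32, 2.82, 2.83 and 3.41, against -0.11, 0.01, 0.11 and -0.13 in mock tumours, a difference of 3.13 ± 0.17 log2 units (SE, limma adjusted p over all probe sets 6.02e-09). All 4 LhTERTL tumours lay far above all 4 mock tumours, in the direction of their labels. By the second, the values were -0.17, -0.03, -0.18 and -0.20 in LhTERTL, against 0.22, 0.77, 0.03 and 0.74 in mock tumours, a difference of -0.58 (adjusted p = 0.0181). The 2 probe sets thus moved in opposite directions, and the part of the transcript that each one covers was not examined. Among 22 telomerase and shelterin genes, which build telomerase and protect telomeres, 3 rose and 0 fell, with a median change of 0.05. This count includes the introduced gene, and such a share is near the 12.3% of all genes called higher. These were TERT with the mean of both probe sets (1.27 ± 0.12), TEN1, a subunit of the telomere-capping CST complex (0.59), and WRAP53, which brings telomerase to Cajal bodies (0.20).

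Of the 20282 genes, 4115 (20.3%) were called, 2494 (12.3%) higher and 1621 (7.99%) lower in LhTERTL than in mock tumours. Most changes were small: 1650 of the rises and 1128 of the falls were under 0.5 log2 units, and the median called rise and fall were 0.40 and -0.38. At least 2-fold changes were seen in 170 genes that rose (0.838% of all genes) and in 108 that fell (0.532%). At least 4-fold, the falls outnumbered the rises, 25 against 19. All 4 LhTERTL tumours lay above all 4 mock tumours in 3058 genes (15.1%) and below them in 2007 (9.9%). The median over all genes was 0.01. At an unadjusted p under 0.05 there were 6309 genes.

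**Figure D1:**
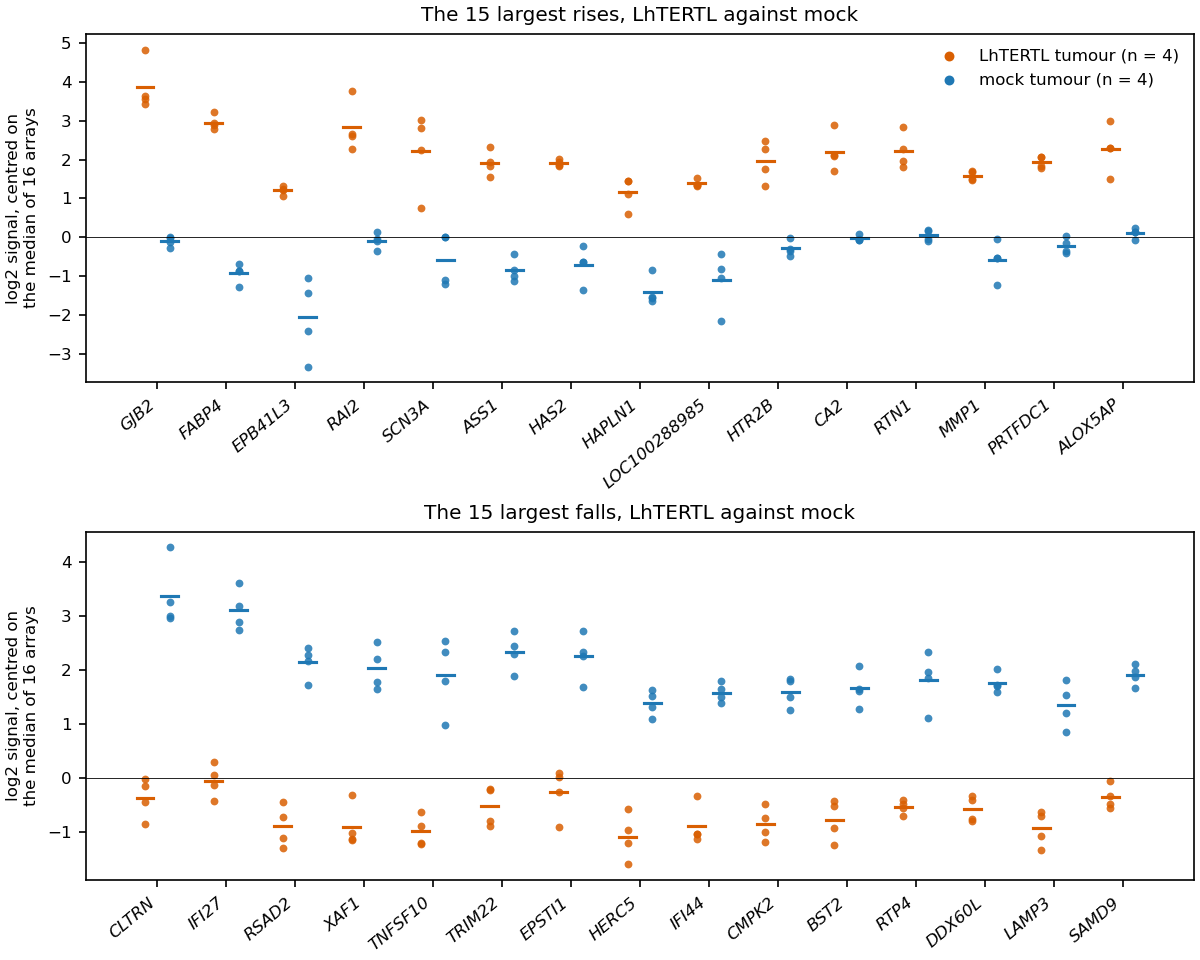
The 15 largest rises (upper panel) and 15 largest falls (lower panel) in LhTERTL against mock tumours. Each point is 1 tumour, as log2 signal centred on the median of the 16 arrays, with LhTERTL left of mock for each gene, and bars are group means. In every gene shown the 4 LhTERTL tumours lie on one side of the 4 mock tumours, which was a condition for naming them.

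The falls were led by genes of the interferon response. CLTRN (TMEM27 in the deposited annotation, Entrez gene 57393, chromosome X) fell the most. It encodes collectrin, a membrane protein known from kidney and pancreas and no member of the interferon lists. LhTERTL tumours had -0.43, -0.85, -0.14 and -0.02, against 3.27, 2.96, 3.01 and 4.28 in mock tumours, a change of -3.74 ± 0.29 (13.4-fold lower, adjusted p = 2.91e-07). IFI27 (Entrez gene 3429, chromosome 14), a small mitochondrial protein induced by type I interferon, had -0.43, -0.14, 0.05 and 0.29 in LhTERTL, against 3.19, 2.90, 2.74 and 3.61 in mock tumours. The groups lay far apart, and it fell by 3.17 ± 0.29 (8.99-fold lower, adjusted p = 1.10e-06). RSAD2, which encodes viperin, an enzyme that makes a chain-terminating nucleotide, had -1.11, -1.30, -0.72 and -0.45 in LhTERTL, against 2.17, 1.73, 2.27 and 2.42 in mock tumours. No value of one group came near the other, and the change was -3.04 ± 0.25 (adjusted p = 4.93e-07). CMPK2, a mitochondrial nucleotide kinase and the neighbour of RSAD2 in the genome, fell by 2.45 ± 0.21.

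XAF1, a pro-apoptotic antagonist of XIAP, fell by 2.93 ± 0.24. TNFSF10, the death ligand TRAIL (Entrez gene 8743, chromosome 3), had -1.20, -1.22, -0.89 and -0.63 in LhTERTL, against 1.80, 0.98, 2.33 and 2.55 in mock tumours. The mock tumours spread widely, with mock 2 lowest, yet all lay above all LhTERTL tumours, and TNFSF10 fell by 2.90 ± 0.36 (7.46-fold lower, adjusted p = 3.24e-05). TRIM22, a RING-finger restriction factor, fell by 2.87 ± 0.36. EPSTI1, an interferon-responsive protein first described in epithelial-stromal interaction, fell by 2.52 ± 0.22, while HERC5, the ligase that attaches ISG15 to proteins (-2.48 ± 0.22), and IFI44 (-2.47 ± 0.25) changed by like amounts. BST2, the tetherin that holds budding virions at the cell surface, had -1.23, -0.93, -0.51 and -0.43 in LhTERTL, against 1.66, 1.29, 1.62 and 2.08 in mock tumours, and fell by 2.44 ± 0.27. RTP4 (-2.36 ± 0.20), the helicase-like DDX60L (-2.34 ± 0.16), LAMP3 of dendritic cell lysosomes (-2.28 ± 0.26) and SAMD9, a translation inhibitor of poxvirus-infected cells (-2.27 ± 0.15), completed the 15. All 15 had an adjusted p of 3.39e-05 or less in limma.

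The promoters of these genes were read from RefSeq (GRCh38.p14), as the 300 bases from 250 before to 50 after the annotated start. Of the 15 largest falls 13 had a promoter in that table, and 9 of these held the ISRE letters on either strand, searched as GAAA, any 2 bases and GAAA, against 0 of the 8 promoters found among the 15 largest rises. The windows of these 9 genes, with that of ISG20, which is described further on, are printed here because they show the element that most of the strongest falls share. Each line reads 5′ to 3′ on the strand of the gene, ends before the start site, surrounds the match nearest to it, and has every full match in the line, on either strand, in capitals.
IFI27, chr14:94110621-94110670, plus strand: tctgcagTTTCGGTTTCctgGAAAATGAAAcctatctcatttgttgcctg
TNFSF10, chr3:172523588-172523637, minus strand: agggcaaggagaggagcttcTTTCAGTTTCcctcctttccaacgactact
EPSTI1, chr13:42992262-42992311, minus strand: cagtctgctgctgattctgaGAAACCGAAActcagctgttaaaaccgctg
HERC5, chr4:88457025-88457074, plus strand: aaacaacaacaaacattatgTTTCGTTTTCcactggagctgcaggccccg
IFI44, chr1:78649751-78649788, plus strand: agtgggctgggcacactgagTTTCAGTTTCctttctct
BST2, chr19:17405725-17405774, minus strand: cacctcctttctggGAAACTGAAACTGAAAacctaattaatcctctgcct
RTP4, chr3:187368347-187368384, plus strand: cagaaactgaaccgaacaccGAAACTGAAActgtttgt
DDX60L, chr4:168480513-168480562, minus strand: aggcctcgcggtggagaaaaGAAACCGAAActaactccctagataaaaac
SAMD9, chr7:93118086-93118135, minus strand: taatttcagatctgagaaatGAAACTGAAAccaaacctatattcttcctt
ISG20, chr15:88638927-88638976, plus strand: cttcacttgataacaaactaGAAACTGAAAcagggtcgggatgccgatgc

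The match nearest the start ended 86 bases before the start in IFI27, 41 in EPSTI1 and DDX60L, 9 in IFI44 and RTP4, and 178 in TNFSF10. In IFI44, HERC5 and TNFSF10 this match lay on the strand opposite to the gene. Upstream of the start HERC5 had 3 matches in all, IFI27, BST2, RTP4 and DDX60L had 2, and the other 5 had 1. Across all 14945 tested genes with a promoter, 446 (2.98%) held the letters, and across all 27305 promoters of RefSeq the number was 996 (3.65%). Among genes called and at least 2-fold lower, the share was 37 of 76 (48.7%), against 4 of 118 (3.39%) among those at least 2-fold higher. Of the 446 genes with the element 101 (22.6%) were called lower and 30 (6.73%) higher, against 8.37% and 13.0% of all genes with a promoter. Their median change was -0.03, so most genes with these letters in the promoter were not among the falls. A match is a string of letters and not evidence that a factor binds there.

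**Figure D2:**
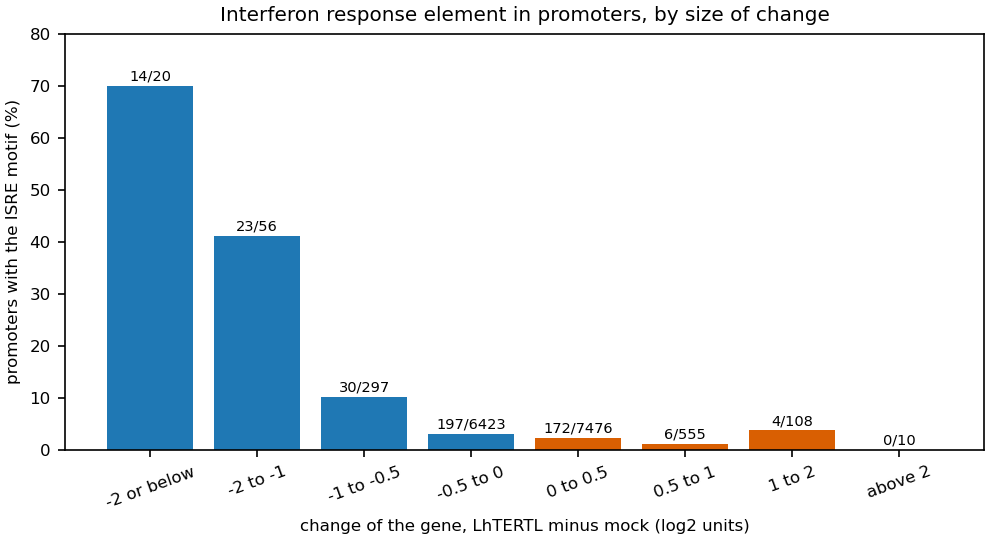
Share of promoters (%) with the ISRE letters, by the change of the gene in LhTERTL minus mock (log2 units, called or not). Numbers above bars are promoters with the element over promoters in the class: 14 of 20 at -2 or below, 41.1% from -2 to -1, 10.1% from -1 to -0.5, and 3.70% or less in every class above.

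The interferon lists differed in how many members fell, where 7.99% of all genes were called lower. Of 21 genes of receptors, JAK-STAT signalling and IRF factors, 11 fell and 0 rose, with a median of -0.20. IRF7, which drives interferon genes themselves, had -0.72, -0.81, -0.48 and -0.46 in LhTERTL, against 1.08, 0.77, 1.16 and 1.44 in mock tumours. It fell by 1.73 ± 0.14 (adjusted p = 3.43e-07), with no overlap. IRF9 fell by 1.15 ± 0.14 and STAT2 by 0.83 ± 0.12. These 3 are transcription factors of the pathway and are themselves interferon-induced. Of the list, 10 members did not pass the test.

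Of 19 nucleic acid sensors and adaptors 11 fell, 1 rose and 7 did not pass, with a median of -0.63. MYD88, the adaptor of Toll-like receptors, fell by 0.98 ± 0.08 (adjusted p = 3.93e-07). RIGI, the sensor of viral RNA ends, had -0.53, -0.84, -0.40 and -0.31 in LhTERTL, against 1.29, 1.11, 1.44 and 1.61 in mock tumours, and fell by 1.88 ± 0.16. ADAR, which edits double-stranded RNA, fell by 0.85 ± 0.09 and ZNFX1, a helicase that senses RNA, by 1.06 ± 0.11. The single rise was TLR4, the receptor for lipopolysaccharide (0.58), named after its value was seen. STING1, an adaptor of DNA sensing, had a change of 0.19 that did not pass the test (adjusted p = 0.19).

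Of 40 antiviral effectors 38 fell, with a median of -1.95 against 0.01 over all genes. The list mean lay between -0.52 and -0.16 in the 4 LhTERTL tumours, against 1.02 to 1.58 in the mock tumours. OASL, related to the oligoadenylate synthetases, fell by 2.22 ± 0.18, IFIT2, which stalls translation of viral RNA, by 2.18 ± 0.17, and SP110 of nuclear bodies by 1.96 ± 0.14. SLFN11, which blocks replication after DNA damage, was named after its value was seen and rose by 0.99. All 11 genes of ISG15 conjugation and of the interferon-linked PARP enzymes fell, with a median of -1.48. In all of them the 4 LhTERTL tumours lay below the 4 mock tumours, as in 9.9% of all genes. PARP14 fell by 1.51 ± 0.13, PARP12 by 1.56 ± 0.13, and DTX3L, the ubiquitin ligase partner of PARP9, by 1.48 ± 0.13.

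All 19 genes of MHC class I presentation fell, beside 7.99% of all genes, with a median of -0.58. All 4 LhTERTL tumours lay below all 4 mock tumours in 12 of them, beside 9.9% of all genes. B2M, the light chain of every class I molecule, had -0.52, -0.28, -0.62 and -0.22 in LhTERTL, against 0.64, 0.47, 0.41 and 0.66 in mock tumours, and fell by 0.95 ± 0.13 (adjusted p = 9.30e-05). Its 3 probe sets fell by unequal amounts, -1.93, -0.52 and -0.41, and their median fell by 0.56. The peptide-trimming enzymes ERAP2 (-1.08 ± 0.11) and ERAP1 (-0.77 ± 0.11) and the transporter subunit TAP2 (-0.55 ± 0.09) fell with it. The class I heavy chains are near-identical in sequence, so probes can share signal among them. Of 11 class II genes 2 rose and 0 fell, with a median of 0.13. HLA-DPA1 and HLA-DPB1, the chains of HLA-DP, rose by 0.73 ± 0.16 and 0.47 ± 0.09. By promoter, 18 of 27 antiviral effectors held the ISRE letters, 5 of 8 ISG15 and PARP genes, 9 of 16 class I genes and 0 of 8 class II genes. The interferon lists were drawn up with earlier results of these data known, so that their direction is a description.

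Genes of cell death and of inflammation were mixed. Of 20 death ligands, receptors and caspases 9 fell and 0 rose, with a median of -0.15. Apart from TNFSF10 these included CASP1, the inflammasome protease (-1.06 ± 0.13), CASP4, which senses intracellular lipopolysaccharide (-0.72 ± 0.11), and CFLAR, an inhibitor of caspase-8 (-0.34 ± 0.07). Of 21 BCL2 family and IAP genes 4 rose and 3 fell, beside 12.3% and 7.99% of all genes. The death-promoting BAX (0.53), BID (0.60) and BIK (0.71) and the mitotic inhibitor of apoptosis BIRC5 (0.57) rose, while the death-promoting PMAIP1 (-0.78), the inhibitor BIRC3 (-1.05) and the survival protein MCL1 (-0.32) fell. Of 17 NF-kB subunits and inhibitors 3 fell, all of them feedback inhibitors: NFKBIA (-1.14 ± 0.13), TNFAIP3 (-0.79 ± 0.11) and CYLD (-0.24). NFKBIE, another IkB protein, rose by 0.30, and the other 13 did not pass.

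Of 18 chemokines 9 fell and 2 rose, with a median of -0.42 that came to -0.26 without mock 3. Over all genes 7.99% were called lower and 12.3% higher, the background for each list of this paragraph. CXCL8, which attracts neutrophils, had 0.15, 0.30, 0.21 and -0.03 in LhTERTL, against 1.67, 1.37, 1.35 and 1.41 in mock tumours, and fell by 1.29 ± 0.17 (adjusted p = 6.06e-05). CXCL2, of the same function, had -0.18, -0.10, -0.11 and -0.18 in LhTERTL, against 1.76, 1.35, 0.63 and 1.17 in mock tumours, and fell by 1.37 ± 0.15. The LhTERTL tumours were tightly grouped in both genes, and the mock tumours were higher throughout. CXCL5 (-0.56) fell as well, while CCL28, made by mucosal epithelia (0.51), and CCL26, an eosinophil attractant (1.18), rose. Of 14 chemokine promoters, of genes called or not, 8 (57.1%) held the NF-kB consensus, against 12.5% of tested genes. Among 20 interleukins, colony-stimulating factors and TNF ligands, IL11 (1.43 ± 0.19) and TNFSF9 (0.74) rose, and IL15, a growth factor of NK cells (-1.58 ± 0.25), IL6 (-0.96) and LIF (-0.65) fell. Among 23 complement and acute-phase genes, CP, the copper oxidase ceruloplasmin (2.08 ± 0.27), SERPINA1 (1.04), the urokinase receptor PLAUR (0.38) and C2 (0.34) rose. The falls included PLAU, the urokinase itself (-0.63), C1S (-0.48) and CFB (-0.38).

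The largest rises were of many kinds. GJB2 (Entrez gene 2706, chromosome 13), which encodes the gap junction protein connexin 26, rose the most. LhTERTL tumours had 4.84, 3.57, 3.65 and 3.43, against -0.28, -0.12, 0.01 and -0.01 in mock tumours, a change of 3.97 ± 0.28 (15.7-fold, adjusted p = 1.40e-07). LhTERTL 1 stood above the other LhTERTL tumours, and all 4 were far above mock. Of 15 connexins and pannexins GJA1 (0.92), the most widespread connexin, and GJA5 (0.61) were the only others called, and the median was 0.02. FABP4 (Entrez gene 2167), a fatty acid carrier of fat cells, endothelium and macrophages, had 2.94, 3.22, 2.88 and 2.78 in LhTERTL, against -0.86, -0.69, -0.87 and -1.28 in mock tumours. Its tumours were close together within each line, and it rose by 3.88 ± 0.12 (14.7-fold, adjusted p = 2.47e-12).

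EPB41L3, a membrane skeleton protein lost in several cancers, had 1.21, 1.33, 1.06 and 1.24 in LhTERTL, against -1.43, -1.04, -3.34 and -2.41 in mock tumours. The mock tumours differed among themselves by more than 2 log2 units, and the change was 3.27 ± 0.39. RAI2, a transcriptional corepressor, had 2.66, 3.78, 2.61 and 2.28 in LhTERTL, against -0.11, 0.14, -0.04 and -0.35 in mock tumours, and rose by 2.92 ± 0.23. SCN3A, a neuronal sodium channel, was the least certain of the large rises, with 2.25, 0.76, 3.03 and 2.82 in LhTERTL, against 0.00, 0.00, -1.10 and -1.21 in mock tumours. Its rise was 2.79 ± 0.66 (adjusted p = 0.00577), and without the arrays of high spike signal it was 2.35 and no longer called (adjusted p = 0.0642). ASS1, the urea cycle enzyme that lets cells make arginine, had 1.84, 2.33, 1.56 and 1.95 in LhTERTL, against -1.0, -0.85, -0.44 and -1.12 in mock tumours, and rose by 2.77 ± 0.17 (6.83-fold, adjusted p = 6.83e-08).

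HAS2, which makes hyaluronan, rose by 2.63 ± 0.33, and HAPLN1, which links hyaluronan to proteoglycans, by 2.56 ± 0.40. The uncharacterised LOC100288985 (2.50 ± 0.31), the serotonin receptor HTR2B (2.25 ± 0.20), the carbonic anhydrase CA2 (2.23 ± 0.17) and RTN1, a reticulon of the endoplasmic reticulum (2.18 ± 0.18), followed. MMP1, an interstitial collagenase, had 1.70, 1.68, 1.47 and 1.49 in LhTERTL, against -0.52, -0.05, -0.54 and -1.23 in mock tumours, and rose by 2.17 ± 0.26. PRTFDC1 (2.17 ± 0.36), related to a purine salvage enzyme, and ALOX5AP, which serves 5-lipoxygenase in leukotriene synthesis (2.17 ± 0.20), closed the list.

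Many genes of cell division rose, most by under 1 log2 unit. Of 40 DNA replication genes 30 rose and 0 fell, with a median of 0.49 against 0.01 over all genes and 12.3% of them called higher. The list mean lay between 0.12 and 0.24 in the LhTERTL tumours, against -0.34 to -0.22 in mock tumours. CDC45, part of the replicative helicase, had 0.44, 0.31, 0.28 and 0.21 in LhTERTL, against -0.53, -0.49, -0.63 and -0.59 in mock tumours, and rose by 0.87 ± 0.08 (adjusted p = 2.19e-06). PRIM1, the catalytic primase subunit, rose by 0.88 ± 0.09, RPA3 of the single-strand binding complex by 0.80 ± 0.09, and MCM3 of the helicase ring by 0.73 ± 0.09. Of 34 mitosis genes 22 rose and 0 fell, with a median of 0.47, among them the kinetochore protein SPC25 (1.02 ± 0.14), the checkpoint kinase TTK (0.87 ± 0.13) and the spindle motor KIF11 (0.71 ± 0.11). Of 31 cyclins, cyclin-dependent kinases and inhibitors 9 rose and 3 fell. CCNE2, cyclin E2, rose by 0.75 ± 0.11 and CDK1 by 0.69 ± 0.11, while E2F7 (-0.35), CCND3 (-0.24) and CDKN2A (-0.29) fell. The E2F letters TTTGGCGC or TTTCCCGC stood in 15 of 32 replication promoters (46.9%), against 3.10% of tested genes. The CCAAT box stood in 19 of 29 mitosis promoters (65.5%), against 27.8%. Both shares describe the listed genes, called or not. Among all genes called higher the E2F letters stood in 4.27% of promoters, and in 1.69% of those at least 2-fold higher.

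Among metabolic lists, 9 of 25 cholesterol synthesis and uptake genes rose and 0 fell, with a median of 0.22, beside 12.3% and 7.99% of all genes called. FDFT1, squalene synthase, had 0.38, 0.19, 0.23 and 0.32 in LhTERTL, against -0.81, -0.79, -0.64 and -1.56 in mock tumours, and rose by 1.23 ± 0.16. ACAT2, the first enzyme of the pathway, rose by 0.82 ± 0.12. Of 31 genes of fatty acid synthesis, binding and storage 7 rose and 2 fell. FABP5, the epidermal relative of FABP4, rose by 0.77 ± 0.08 and SCD, the desaturase, by 0.69 ± 0.10, while ACSL3 (-0.79) and PLIN2, a lipid droplet coat protein (-0.31), fell. Of 35 glycolysis and hypoxia genes 16 rose, including GPI (0.68 ± 0.11), PGAM1 (0.43 ± 0.07) and BNIP3, a hypoxia-induced mitophagy receptor (0.56 ± 0.08). HIF1A, the oxygen-sensitive factor of that response, fell (-0.30). Of 39 respiratory chain genes 11 rose and 0 fell with a median of 0.12, among them cytochrome c, CYCS (0.41).

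Of 28 genes of the amino acid and unfolded protein stress response 3 rose and 5 fell, beside 12.3% and 7.99% of all genes. PSPH, the last enzyme of serine synthesis, had 0.32, 0.24, 0.38 and 0.30 in LhTERTL, against -0.77, -0.78, -0.51 and -0.88 in mock tumours, and rose by 1.05 ± 0.10, with SDF2L1 (0.43) and VLDLR (0.62). TRIB3 (-0.74), HSP90B1 (-0.50), CEBPB (-0.57), DDIT3 (-0.58) and SLC3A2 (-0.33) fell. Of 29 metallothionein and oxidant defence genes 11 rose and 3 fell. The rises included the glutathione reductase GSR (0.65), the lipid peroxidase GPX4 (0.63) and AKR1C2 (0.65), whose relatives are near-identical. All 3 falls were metallothioneins, MT1M (-1.34 ± 0.17), MT1E (-0.27) and MT2A (-0.19), which bind zinc and copper and are also close in sequence.

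Genes of shape, adhesion and matrix held several of the larger rises. The counts of these lists stand beside 12.3% of all genes called higher and 7.99% called lower. Of 26 tubulins and membrane skeleton genes 11 rose and 0 fell, with TUBB6, a beta tubulin, at 0.71, 0.93, 0.74 and 0.63 in LhTERTL, against -0.78, -0.58, -1.69 and -1.32 in mock tumours (1.85 ± 0.18). RDX, radixin, rose by 0.72 and TUBA4A by 0.60. Of 17 keratins and vimentin 6 rose and 0 fell, with a median of 0.23, including KRT18 (0.58 ± 0.12) and KRT19 (0.23) of simple epithelia and KRT6B of stratified epithelia (0.53). KRT75 rose by 1.47 ± 0.38, but its groups overlapped, since mock 3 (0.04) lay above LhTERTL 4 (-0.04). Of 28 cadherin, desmosome and tight junction genes 5 rose, DSC2 (1.18 ± 0.16), EPCAM (1.18), CDH1, the epithelial cadherin (0.91), DSC3 (0.46) and F11R (0.40). The falls included CLDN11 (-0.91), CDH2, the neural cadherin (-0.47), and TJP1 (-0.42). By its probe set with the widest interquartile range CDH2 changed by -0.27 and was not called (limma adjusted p = 0.229). EPCAM and CDH1 changed in the opposite direction in LhTERTL_cre minus mock_cre, with differences between both pairs of 2.52 and 1.65.

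Of 30 proteases and hyaluronan genes 12 rose and 2 fell, with a median of 0.19. Beside HAS2 and MMP1, the proteoglycan VCAN, which binds hyaluronan, rose by 1.04 ± 0.15 and the membrane protease MMP16 by 0.77 ± 0.12. CD44, the hyaluronan receptor (-0.22), and ADAM19 (-0.20) fell. Of 25 collagens and crosslinking enzymes 10 rose, among them COL4A1 of basement membranes (0.95 ± 0.16), COL5A1 (0.62), COL1A1 (0.56) and the oxidase LOXL1 (0.63), and only PLOD2, a lysyl hydroxylase, fell (-0.45). Of 22 integrins and laminins ITGB5 (0.48), LAMA4 (0.77), ITGB3 (0.42), LAMA1 (0.27) and ITGA6 (0.31) rose, while LAMA5 (-0.63 ± 0.09), ITGA2 (-0.54 ± 0.09) and ITGA3 (-0.69 ± 0.11) fell.

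Of 39 TGF-beta, BMP and Wnt genes 8 rose and 2 fell. For this and the next lists, 12.3% of all genes were called higher and 7.99% lower. BMP2, a bone morphogenetic protein, had 1.93, 1.77, 1.67 and 2.0 in LhTERTL, against 0.06, -0.48, -0.17 and -0.47 in mock tumours, and rose by 2.11 ± 0.19 (4.32-fold, adjusted p = 1.10e-06). ID3, a target of BMP signalling, rose by 1.53 ± 0.21 and the Wnt-linked receptor LGR5 by 1.14 ± 0.17. NOG, the BMP antagonist noggin (-1.50), named after its value was seen, and TGFBR3, the co-receptor betaglycan (-1.53 ± 0.16), fell. Of 35 EGFR, FGF, MET and IGF genes IGFBP5 (1.45 ± 0.13), HGF, the ligand of MET (1.14 ± 0.17), IGF1R (0.32) and AREG (0.37) rose. The binding proteins IGFBP4 (-0.74), IGFBP3 (-0.60) and IGFBP6 (-0.43), FGF5 (-0.48) and BTC (-0.42) fell. Of 30 voltage-gated and related ion channel genes SCN3A, CACNA2D1 (1.66 ± 0.23), SCN9A (1.15 ± 0.16), KCNN4 (0.95 ± 0.12) and SCN2A (0.44) rose, and CACNA1A fell (-0.66).

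Lists of cell identity had small medians. Of 26 prostate luminal and androgen-axis genes 10 rose and 0 fell, with a median of 0.18, led by the trefoil peptide TFF3 (1.64 ± 0.23), HPGD, which breaks down prostaglandins (1.93 ± 0.35), and the luminal factor GATA3 (1.16 ± 0.19). Of 30 oncofetal and epithelial-mesenchymal regulators 9 rose, among them EYA2 (1.65 ± 0.28), the let-7 inhibitor LIN28B (0.84) and TWIST1 (0.37), and the falls included IGF2BP2 (-0.65) and HMGA2 (-0.23). Of 32 HOX genes 4 rose and 3 fell, close to the 12.3% and 7.99% over all genes. HOXB7 (0.55), HOXB9 (0.52), HOXB6 (0.40) and HOXB3 (0.38) rose, and HOXD3 (-0.50), HOXD4 (-0.35) and HOXA11 (-0.34) fell. Of 25 genes known as p53 targets 7 rose, with BAX, ZMAT3 (0.59) and SESN1 (0.56), and GADD45A (-0.39) and TNFRSF10B (-0.19) fell, in a cell line that is known to lack p53. None of 20 cancer-testis antigens was called by limma. The members closest to it were SSX1 (0.16, adjusted p = 0.125) and MAGEA4 (-0.16, adjusted p = 0.138), both called with array weights (0.18 and -0.20). At an unadjusted p under 0.05 the same limma fit gave 2 higher and 2 lower. Where another list above had 0 calls in a direction, its count in that direction at an unadjusted p under 0.05 was 0 for the ISG15 and PARP, class I, replication, mitosis, cholesterol and prostate lists. It was 1 for interferon signalling, class II, death, connexin, keratin and tubulin genes, and 2 for the telomerase and respiratory chain genes.

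**Figure D3:**
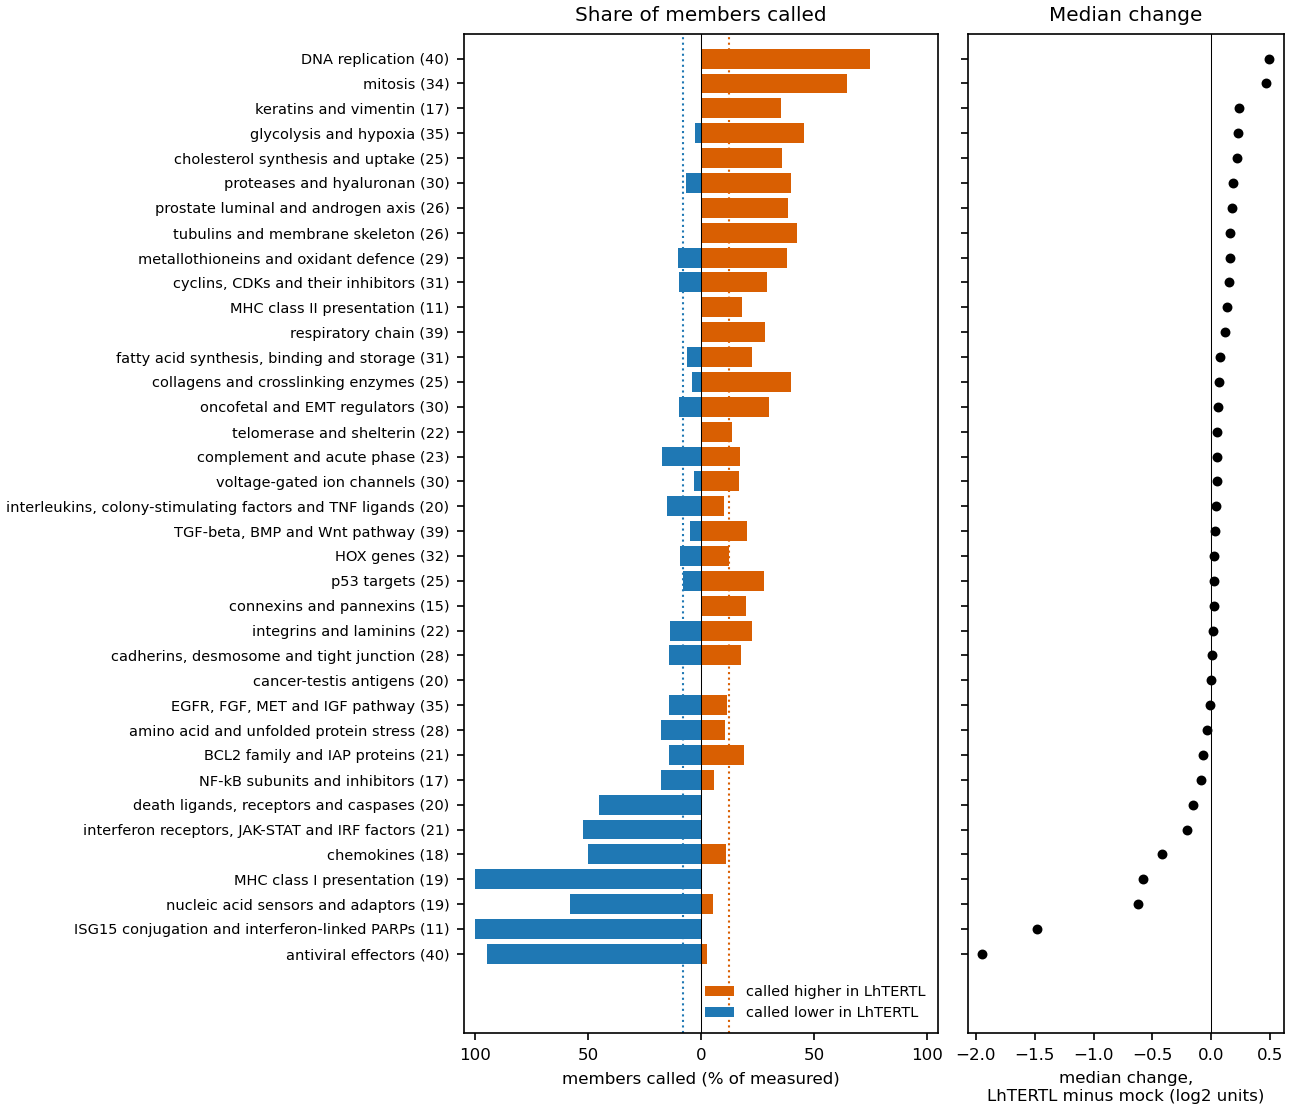
Share of measured members called higher (right of 0) or lower (left of 0) in LhTERTL than in mock tumours for 37 gene lists, with the number measured in brackets, and the median change of each list in log2 units. Dotted lines mark the 12.3% and 7.99% of all genes called higher and lower. Antiviral effectors have the lowest median (-1.95) and DNA replication the highest (0.49).

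The pair LhTERTL_cre and mock_cre shares no tumour with the comparison above. By their labels these lines differ in telomere length, and neither carries exogenous hTERT. Each is again 1 line with 4 tumours, so telomere length and any other difference between them cannot be told apart. Lines of the same telomere label differed as well. The antiviral effector list mean was 0.15 to 0.57 in mock_cre, against 1.02 to 1.58 in mock tumours. In LhTERTL_cre it was -1.51 to -0.74, against -0.52 to -0.16 in LhTERTL. Of the 2494 genes that rose in LhTERTL, 1225 were also called higher in LhTERTL_cre than in mock_cre tumours and 136 were called lower. Of the 1621 that fell, 792 were also called lower and 85 were called higher. Over all 20282 genes, 5680 were called in LhTERTL_cre minus mock_cre, in either direction, the background for these counts. The change in LhTERTL minus mock differed from that in LhTERTL_cre minus mock_cre in 2151 genes (10.6% of all), by the test of the difference in limma. That count was 974 with the 3'/5' ratio of the arrays as a covariate and 3339 with array weights. The ratio was 0.399 to 1.21 in mock_cre, against -0.137 to 0.300 in mock. The part of RNA quality in these differences was not tested further. Among the 170 rises of at least 2-fold the median change was 1.33 in LhTERTL minus mock and 0.50 in LhTERTL_cre minus mock_cre, and the difference was called in 93, 87 of them larger in the first pair. Among the 108 falls of at least 2-fold the medians were -1.38 and -1.12, and the difference was called in 30, all larger in the first pair. These genes were selected by their size in the first pair, so the size of their change in the second pair is not on an equal footing with it.

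Among the interferon genes the difference between pairs was called in 0 of 11 ISG15 and PARP genes, 6 of 40 antiviral effectors, 1 of 19 class I genes, 3 of 21 signalling genes and 6 of 19 sensors, beside 10.6% of all genes. The sensors had medians of -0.63 and -0.12 in the 2 pairs. BST2, with -2.44 and -2.74, HERC5, with -2.48 and -2.46, IFI44, with -2.47 and -2.49, and TNFSF10, with -2.90 and -3.37, changed by similar amounts in LhTERTL minus mock and in LhTERTL_cre minus mock_cre. The SE of each of these differences was 0.32 to 0.51, so unequal changes within that error are possible. IFI27 fell by 3.17 and 1.31 (difference -1.86 ± 0.40, adjusted p = 0.00660), SAMD9 by 2.27 and 1.08, EPSTI1 by 2.52 and 1.02, and CLTRN changed by -3.74 and -1.28 (difference -2.46 ± 0.40). MX1, named after its values were seen, had 0.35, 0.22, 0.87 and 0.99 in LhTERTL, against 2.98, 2.46, 2.62 and 3.42 in mock tumours, and fell by 2.26 ± 0.27. Its change in the Cre pair was -0.46 (adjusted p of the difference 0.00607).

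ISG20, an interferon-induced RNA exonuclease, moved in opposite directions. It had -0.01, -0.19, -0.06 and 0.01 in LhTERTL, against 1.43, 1.21, 0.94 and 1.69 in mock tumours, a fall of 1.38 ± 0.13, but rose by 0.73 ± 0.13 in LhTERTL_cre against mock_cre tumours. The difference was -2.11 ± 0.18 (adjusted p = 6.28e-06). The ISRE letters stood in 30 of 54 promoters (55.6%) of the 2-fold falls whose difference was not called and in 7 of 22 (31.8%) of those whose difference was called. The chemokines CXCL8 (-1.29 and 0.26) and CXCL2 (-1.37 and -0.04) fell in the first pair alone, with the difference called for both (adjusted p = 0.000741 and 0.00103).

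**Figure D4:**
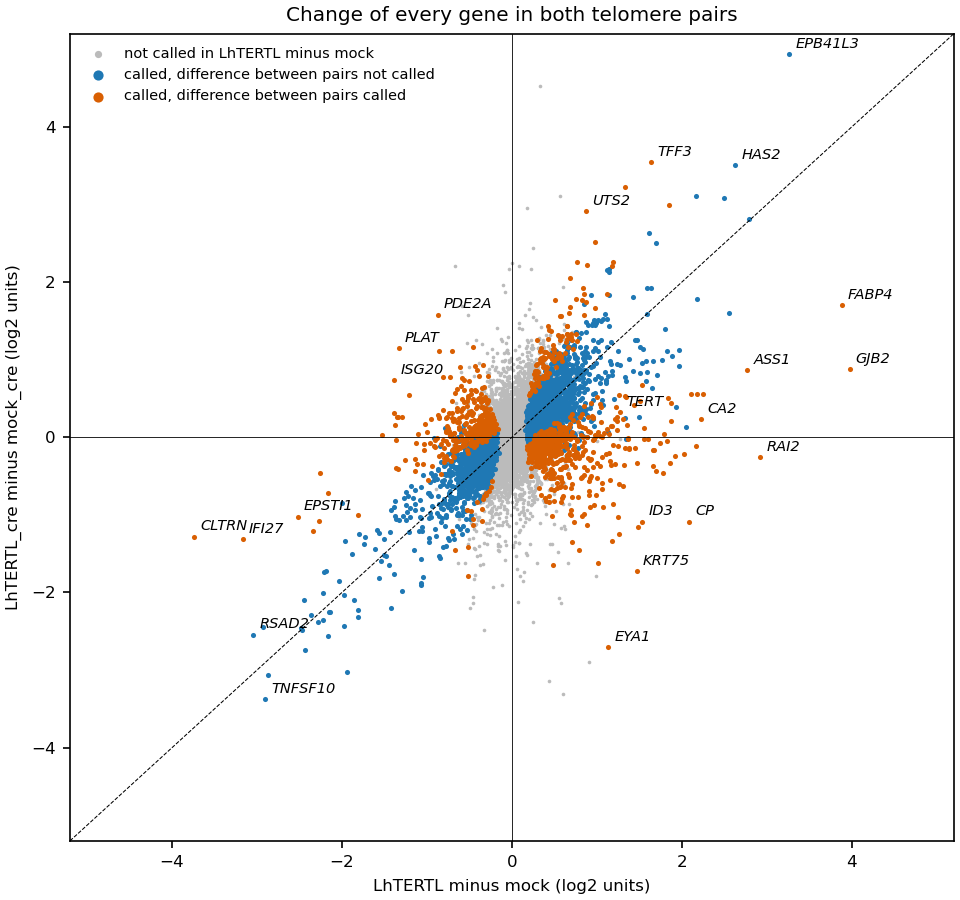
Change of every gene in LhTERTL minus mock (horizontal, log2 units) and in LhTERTL_cre minus mock_cre (vertical, log2 units). Grey genes were not called in LhTERTL minus mock, blue genes were called there without a called difference between pairs, and orange genes had a called difference; the dashed line marks equal change. RSAD2 and TNFSF10 lie near the line, RAI2 and CA2 near 0 on the vertical axis, and CP, KRT75 and EYA1 below 0 on it.

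Several of the largest rises were called in LhTERTL alone. RAI2 changed by 2.92 in LhTERTL minus mock and by -0.25 in LhTERTL_cre minus mock_cre (difference 3.17 ± 0.32, adjusted p = 2.83e-05), CA2 by 2.23 and 0.23, and ALOX5AP by 2.17 and -0.11. GJB2 changed by 3.97 and 0.88, FABP4 by 3.88 and 1.71 and ASS1 by 2.77 and 0.86, each with a called difference and the same sign in both pairs. CP had 2.22, 2.18, 1.45 and 2.08 in LhTERTL, against -0.04, -0.66, 0.50 and -0.21 in mock tumours, but fell by 1.09 ± 0.27 in LhTERTL_cre against mock_cre (difference 3.17 ± 0.38). EYA1, a developmental phosphatase, had the largest difference, 3.84 ± 0.51, with changes of 1.14 and -2.70. Its groups overlapped here, with 0.55, 1.28, 0.19 and -0.19 in LhTERTL, against -0.88, -0.95, 0.45 and -1.33 in mock tumours, and the call in LhTERTL minus mock was lost without any 1 of LhTERTL 1, LhTERTL 2, mock 1, mock 2 or mock 4 (adjusted p 0.0757 to 0.121). KRT75 changed by 1.47 and -1.72. In the other direction PLAT, tissue plasminogen activator, fell by 1.33 ± 0.30 and rose by 1.15 ± 0.30 in the Cre pair, and PDE2A, a cyclic nucleotide phosphodiesterase, by 0.87 and 1.58. UTS2, urotensin, rose by 0.87 here and by 2.91 in the Cre pair, but its 2 probe sets disagreed, at 1.78 and -0.04.

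The calls were spread unevenly over the chromosomes, given here as a description without a test. On chromosomes 6, 7, 10, 13, 19 and 22, 16.1% to 21.9% of genes were called higher and 2.60% to 4.76% lower. On chromosomes 4, 5, 11, 12, 14 and 15, 6.24% to 8.75% were called higher and up to 18.8% lower. The extremes were chromosome 22, with 101 of 461 genes higher and 12 lower, and chromosome 14, with 53 of 606 higher and 114 lower. The medians over all genes of these 2 chromosomes were 0.07 and -0.01. Chromosomes 8 and Y are not analysed here.

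**Figure D5:**
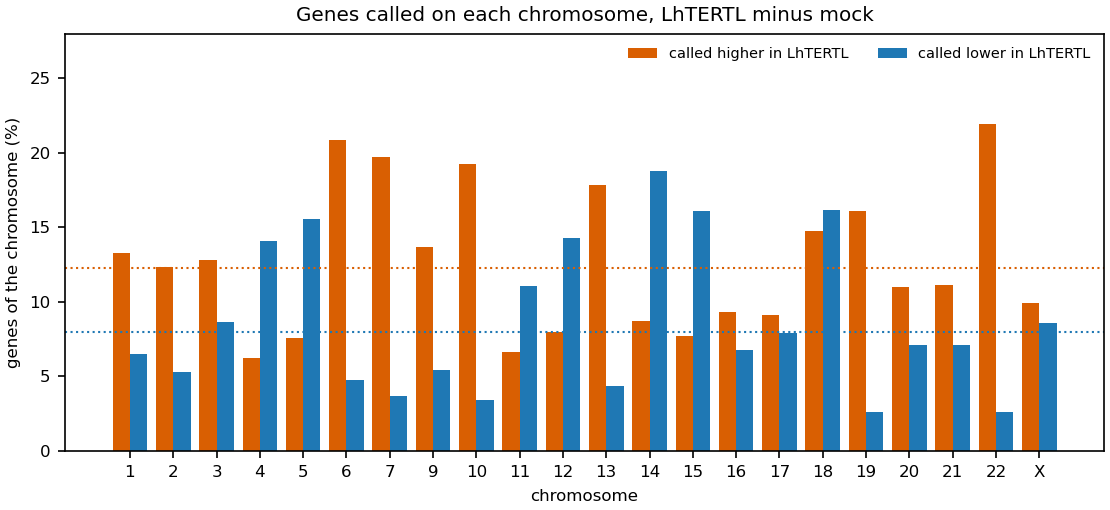
Share of the genes of each chromosome (%) called higher (orange) and lower (blue) in LhTERTL than in mock tumours. Dotted lines mark 12.3% and 7.99%, the shares over all genes. Chromosome 22 has the highest share of rises (21.9%) and chromosome 14 the highest share of falls (18.8%).

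Probe sets of a gene disagreed in size for several named genes, whose mean then stands for none of them. CACNA2D1 had 0.16 (adjusted p = 0.256) and 3.15, CLDN11 -0.07 and -1.75, LGR5 -0.06 and 2.35, and GJA5 0.07 and 1.14. With the median of the probe sets HLA-DPA1 came to 0.42, CXCL5 to -0.25, LAMA4 to 0.51 and IGFBP5 to 0.96, each still called. The smaller calls among the genes named here were not all stable to the choice of tumours. Of 212 genes named, 34 lost the call when at least 1 of the 8 tumours was left out, with adjusted p of 0.0504 to 0.179, and 32 of them changed by under 1 log2 unit. Leaving out mock 4 ended 26 calls, mock 1 25, LhTERTL 3 22, LhTERTL 2 19, LhTERTL 1 18, mock 2 16, LhTERTL 4 15 and mock 3 14. Beside EYA1 they were ADAM19, AREG, BIK, BTC, C1S, CCND3, CD44, CDKN2A, CFB, CFD, COL3A1, CYLD, E2F7, EPCAM, HMGA2, HOXA11, HOXB6, HOXD4, IGF1R, IGFBP3, ITGA6, KRT1, KRT19, MFAP5, MT1E, MT2A, PECAM1, SCN2A, SLC3A2, TLR4, TNFRSF10B, VLDLR and WRAP53. None turned its sign in these fits.

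The host cells of a xenograft are mouse cells, which human probes can read only by cross-hybridisation. Calls among markers of such cell types stand beside 12.3% of all genes called higher and 7.99% called lower. None of 12 macrophage, 9 skeletal muscle or 7 erythrocyte markers was called by limma, and at an unadjusted p under 0.05 they gave 1, 1 and 0 markers. Of 14 fibroblast markers COL1A1 (0.56), COL3A1 (0.52), FBLN1 (0.35) and MFAP5 (0.32) rose. Without LhTERTL 3 COL3A1 was 0.32 and not called, and MFAP5 lost its call without any 1 of 5 tumours. The list had means of 0.04 to 0.22 in LhTERTL, against -0.10 to 0.05 in mock tumours. The collagen list holds 2 of these genes, COL1A1 and COL3A1, and the part of host fibroblasts in them was not tested. Of 12 endothelial markers PECAM1 rose (0.45, but -0.03 by its most variable probe set) and KDR fell (-1.43), and of 9 keratinocyte markers KRT1 fell (-0.24). Of 8 adipocyte markers FABP4 and CFD (0.51) rose. FABP4 differed by 3.88, and the other 6 were not called, among them PLIN1 (-0.08) and LPL (-0.08). The adipocyte list, FABP4 included, had means of 0.23 to 0.47 in LhTERTL, against -0.28 to -0.16 in mock tumours. Its median change was 0.05, and the part of host fat cells was not tested. Because the values hold no level, it could not be checked which of these markers are at background.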

How the data were processed

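Total RNA of each xenograft tumour was hybridised to 1 Affymetrix array with human probes. The authors normalised the arrays by RMA and deposited log2 signals, per the submitters' processing notes and the labels. By their values, the deposited log2 signals also had the median of the 16 arrays taken away for every probe set, a step that no label states. No level is left, so dim genes could not be filtered and precision rests on the number of arrays.

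Of 54675 probe sets, 41479 name exactly 1 gene in the deposited annotation, 961 name several and 12173 none, and 62 are array controls. Probe sets of a gene were averaged, which gave 20282 genes, of which 3316 took their symbol from RefSeq through the Entrez number. limma 3.58.1 (R 4.3.3) fitted 1 mean per line over all 16 arrays, with Benjamini-Hochberg adjustment over all genes. Contrasts were LhTERTL minus mock, LhTERTL_cre minus mock_cre and the difference of both. Simulated data held 20282 genes, 200 of them changed, with independent normal spread. This fit found 81% of the genes changed by 0.5 log2 units and 99.4% of those changed by 1, and called 9.6 unchanged genes on average. The comparison itself had 4115 calls and correlation between genes was not simulated, so this count of false calls does not carry over to it.

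Genes were named as the 15 largest rises and falls with groups that do not overlap and probe sets of 1 sign, up to 4 members per list by adjusted p, 5 differences between pairs in each direction and TERT. Further members named to account for a count were chosen after their values were seen. The gene lists and the comparison were chosen with earlier results of these data known. Replicate numbers were not taken to pair the tumours. Alternatives covered the gene value, normalisation, variance model, arrays in the fit, pairing, threshold and each LhTERTL or mock tumour left out. Added after seeing the data were array controls as covariates, the fit without arrays of high spike signal, and each tumour of the Cre lines left out. Some members of the lists are not reported here by name.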

Additional observations from a re-analysis of the deposited data

Results flagged for a closer look

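In 23 of 424 groups of 4 tumours of a named gene, 1 tumour lay far from the other 3, at a rate close to the 1 in 20 that chance gives. Among LhTERTL tumours these were tumour 1 for GJB2 (4.84) and LIN28B (0.46) and tumour 2 for STING1 (-0.10), CXCL5 (-0.18), COL4A1 (0.46) and ZMAT3 (0.31). They were tumour 3 for ERAP1 (-0.21), IL15 (-0.044), MT1E (0.18) and BTC (-0.16), and tumour 4 for XAF1 (-0.31), IFI44 (-0.33), TJP1 (-0.35), ITGB3 (-0.048) and PDE2A (-0.58). Among mock tumours they were tumour 3 for HAPLN1 (-0.84), BIRC5 (-0.68), KRT18 (-0.26), EPCAM (-0.11) and CACNA1A (0.087), and tumour 4 for CDH2 (0.79), FGF5 (0.63) and PDE2A (1.03). All values are centred log2 signals.

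For 88 named genes the change in LhTERTL minus mock differed from that in LhTERTL_cre minus mock_cre by limma's test of the difference, at adjusted p of 3.35e-06 to 0.0482. In 79 of them the difference, given here in log2 units, had the sign of the change in LhTERTL minus mock. Over all genes the difference was called in 10.6%. Among all called genes with a called difference, the signs were equal in 510 of 628 rises and 339 of 357 falls. The named genes were chosen mainly by their change in LhTERTL minus mock or by the difference itself. That change is a term of the difference, so both counts are favoured by the choice.

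Among rises, the large differences were those of EYA1 (3.84), KRT75 (3.19), RAI2 (3.17), CP (3.17), GJB2 (3.09), ID3 (2.62), EPCAM (2.52), ALOX5AP (2.28), FABP4 (2.18), CA2 (1.99) and ASS1 (1.91). CACNA2D1 (1.82), SCN9A (1.70), HTR2B (1.69), CDH1 (1.65), RTN1 (1.62), IGFBP5 (1.58), BMP2 (1.56), BIK (1.48), VCAN (1.40), HGF (1.34), LGR5 (1.10) and KRT18 (1.09) followed. Under 1 log2 unit they were KCNN4 (0.98), SLFN11 (0.97), IGF1R (0.97), TERT by the mean of its probe sets (0.95), KRT6B (0.85), PSPH (0.84), FDFT1 (0.84), LAMA4 (0.80), ITGB3 (0.75), HLA-DPA1 (0.73), GPX4 (0.71) and TUBA4A (0.64). The smallest were HOXB3 (0.62), HOXB7 (0.61), SCN2A (0.60), CCL28 (0.56), COL1A1 (0.53), SCD (0.52), COL5A1 (0.49), LAMA1 (0.36) and CYCS (0.34).

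Among falls they were PLAT (-2.48), CLTRN (-2.46), PDE2A (-2.46), ISG20 (-2.11), IFI27 (-1.86), MX1 (-1.81), MT1M (-1.61), TGFBR3 (-1.57), CXCL8 (-1.56), EPSTI1 (-1.50), CXCL2 (-1.33), IGFBP3 (-1.26), SAMD9 (-1.19) and DDX60L (-1.13). Under 1 log2 unit they were E2F7 (-0.98), CLDN11 (-0.87), PMAIP1 (-0.85), IGF2BP2 (-0.85), IGFBP4 (-0.82), IGFBP6 (-0.81), ITGA2 (-0.79), CDH2 (-0.75), HOXD3 (-0.63), CACNA1A (-0.62), PLOD2 (-0.56) and ERAP1 (-0.53). The smallest were MCL1 (-0.52), CXCL5 (-0.52), ITGA3 (-0.51), GADD45A (-0.50), LIF (-0.48), FGF5 (-0.47), MYD88 (-0.43), CD44 (-0.36) and ADAM19 (-0.36).

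The other 9 rose in LhTERTL and changed further upward in the Cre pair, with differences of -2.05 for UTS2, -1.91 for TFF3, -1.15 for TUBB6, -1.03 for DSC2, -0.87 for TTK, -0.69 for BIRC5, -0.61 for CDK1, -0.58 for CCNE2 and -0.55 for KIF11. The last group holds 5 genes of cell division, whose mitosis list had medians of 0.47 in LhTERTL minus mock and 0.86 in LhTERTL_cre minus mock_cre.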

How the results depend on the processing

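Of 6235 values of the 212 named genes under the alternatives, 5936 kept their direction and their side of the threshold, 295 lost the call, 3 gained it and 1 turned its sign, PECAM1 at -0.028 by the probe set with the widest interquartile range. Calls were lost in 49 genes, most often at an adjusted p under 0.01 (42 genes) and without the arrays of high spike signal (30 genes). SCN3A, PLAU, CEBPB, DDIT3, IGFBP6, HOXB9 and FBLN1 lost the call without these arrays (limma adjusted p 0.0582 to 0.111). Leaving out a single LhTERTL or mock tumour did not end their calls. Each tumour left out in turn gave 3141 to 4365 genes called, 1939 to 2653 higher, 1163 to 1712 lower, 153 to 192 at least 2-fold higher, 99 to 121 at least 2-fold lower, and 1544 to 2721 with a difference between pairs.

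Counts moved by more than 1.5 times where fewer or more features were tested, at a stricter threshold, and in 3 other fits. Genes with a single probe set gave 1475 called, 986 higher, 489 lower, 93 and 55 at least 2-fold higher and lower, and 719 differences. Each probe set as its own feature gave 7601, 4431, 3170, 413, 240 and 3435. An adjusted p under 0.01 gave 2337 called, 1468 higher, 869 lower and 953 differences. The probe set with the widest interquartile range gave 311 at least 2-fold higher. The differences between pairs numbered 3339 with array weights and 974 after adding the 3'/5' ratio as covariate, and the cause was not tested.

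List medians kept their sign under every alternative in 29 of 44 lists. The other 15 had medians of at most 0.13 in size. With the replicate number as a block, 4129 genes were called, 2505 of them higher, and 2178 differed between pairs. This block ended the calls of WRAP53, C1S, VLDLR, MT2A, ITGA6, HOXA11 and TNFRSF10B (adjusted p 0.0539 to 0.0711). Same-numbered LhTERTL and mock tumours correlated at 0.0697 to 0.255 and 3 of 4 exceeded 0.1, while only 5 of all 16 arrays were closest to an array of equal number, so the numbers were not taken as pairs. The value table of the series equals the deposited matrix and gave the same values. A filter on dim genes was not run, since the values hold no level.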
